A study of Homo sapiens with 114 samples.

Results

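The comparison described here is the response of HK-2 cells to the high dose of the compound labelled Nnm after 48 h, set against vehicle control cultures of the same time. Its members were chosen by their labels: 3 arrays of Nnm at the high dose and 3 arrays of the 48 h control that Nnm shared with the compound labelled Kbr, 6 arrays of a series of 38 groups with 3 arrays each. HK-2 is an immortalized line of human renal proximal tubular epithelial cells, so all groups share 1 cell line and its immortalization. The study exposed it to 9 compounds at several doses and times in order to find expression signatures of toxicity, and 12 of the groups are controls. The cells were treated near confluence in a medium with EGF, insulin, hydrocortisone, transferrin and selenium, and control cells received the vehicle alone. Beside the main pair, 12 further arrays were used for comparison: Nnm at the low dose for 48 h, Nnm at the high dose for 24 h with the 24 h control of Nnm and Kbr, and Kbr at the high dose for 48 h, with 3 arrays each. The labels give doses only as high and low and name 3 biological replicates per group without saying what separates them. The p-values measure the spread between cultures, estimated over 30 arrays of Nnm, Kbr and their controls. Total RNA was measured on arrays with 54675 probe sets, and every value below is a log2 value, on which a difference of 1 is a doubling.

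Thioredoxin-interacting protein, TXNIP, and its relative ARRDC4 are arrestin-like proteins that restrain glucose uptake; their transcription follows the cell's supply of phosphorylated glucose through the paired factors MLXIP (also called MondoA) and MLX, which bind carbohydrate response elements. Tubule cells of the kidney depend on mitochondria for the ATP that drives reabsorption, and the respiratory chain, the citric acid (TCA) cycle and the mitochondrial ribosome that serves it are encoded largely in the nucleus. Interferon-induced genes are read out through stimulated response elements bound by STAT and IRF factors and are a common cell-intrinsic alarm.

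Of 7 epithelial markers, including KRT8, KRT18 and CDH1, all had group means over log2 4, the level below which a value was taken as background, both in the Nnm high arrays and in controls. Their summed level ran from 68.4 to 71.5 in the Nnm high arrays and from 70.4 to 73.6 in controls. The classical markers of the differentiated proximal tubule were at background in every array: LRP2 and CUBN, the endocytic receptors, SLC34A1, the phosphate transporter, SLC5A2, the glucose transporter, AQP1 and ANPEP lay between 2.10 and 2.96. Of 28 proximal tubule markers on the arrays, 7 passed the filter for testing, among them DPP4, PAX8 and SLC4A4. Their summed level over all 28 ran from 115.8 to 126.0 in the Nnm high arrays and from 119.6 to 121.6 in controls. None of 7 endothelial and 5 leukocyte markers had a group mean over log2 4 in either group. Of 7 fibroblast and pericyte markers 4 did in controls, with a summed level of 46.0 to 49.9 in the Nnm high arrays and 49.4 to 49.9 in controls. The upper quartile of all probe sets ran from 7.06 to 7.14 in the Nnm high arrays and from 7.03 to 7.07 in controls. The ACTB 3′ minus 5′ difference, a sign of RNA length, averaged 1.04 ± 0.16 in the Nnm high arrays and 0.95 ± 0.21 in controls (SD, n = 3 each). In replicates 1, 2 and 3 it was 1.02, 1.22 and 0.90 with Nnm and 0.85, 1.19 and 0.81 in controls. It was highest in replicate 2 of both groups, and in each Nnm high array above the control with the same number. Its part in the results was not tested. In such bulk RNA, fewer cells with a transcript and less of it per cell cannot be told apart.

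Of 11036 genes tested, 3053 or 27.7% passed an adjusted p under 0.05 (limma, Benjamini-Hochberg), 1695 (15.4%) higher and 1358 (12.3%) lower with Nnm. After quantile normalization 1639 were higher and 1668 lower, so which direction holds more calls depends on the scaling. At least 2-fold changes were found for 677 of the higher and 401 of the lower genes, while the median change over all tested genes was 0.01. In 4076 genes (36.9%) the 3 Nnm arrays lay wholly outside the range of the 3 controls, above it in 2199 (19.9%) and below it in 1877 (17%). The spread behind each SE and p-value was estimated over 30 arrays of Nnm, Kbr and their controls, as if equal in all groups. For some genes it was not: the SD of CLDN2 at 48 h was 2.80 with Nnm high, 0.36 in controls and 0.54 with Kbr high. The count thus rested on more arrays than these 6, and with the 6 arrays alone it was 365, 232 higher and 133 lower. It was 1442, 1676 and 2018 without Nnm replicate 1, Nnm replicate 3 and control replicate 3, and 4383 without Nnm replicate 2. Counts of called members in the gene lists below stand beside 15.4% higher and 12.3% lower over all tested genes.

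Nnm replicate 2 stood closer to the controls than its 2 fellow cultures. The root mean square difference from the control mean over all tested genes was 0.921, 0.486 and 0.849 in Nnm replicates 1, 2 and 3, against 0.219, 0.204 and 0.200 in the controls. Replicate 2 differed by 0.819 from replicate 1 and by 0.747 from replicate 3, whereas replicates 1 and 3 differed by 0.390 and pairs of controls by 0.340 to 0.373. The changes of the 3967 genes called at 24 h came from other arrays, but their spread was estimated over all 30 arrays, these 6 included. This set of genes is therefore not independent of the 48 h arrays. In it the median difference in the direction of the 24 h change was 0.69, 0.29 and 0.61 in replicates 1, 2 and 3. Replicate 2 had the smallest difference from the controls in 2786 of these genes (70.2%) and in 6457 of all 11036 (58.5%). At the low dose the number 2 array was again the nearest to the controls, at 0.697, 0.439 and 0.622. Genes differ in how replicate 2 behaved, so its value is printed below with the others, always in the order of replicates 1, 2 and 3. The 14 largest rises and the 14 largest falls were chosen among called genes without overlap of the groups. In these genes replicate 2 thus lies outside the control range by that choice, and only its distance is an observation.

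TXNIP had the largest change of all. It was at 12.49, 11.63 and 12.62 in the Nnm high arrays, against 4.14, 6.51 and 6.95 in controls. All 3 treated cultures were far above every control, replicate 2 included, and the controls themselves spread over nearly 3 units. The change was 6.38 ± 0.53 (SE), an 83.4-fold difference, at adjusted p = 2.09e-07. ARRDC4 was at 6.67, 4.50 and 6.31 in the Nnm high arrays and at background in controls, at 2.97, 3.16 and 2.58, a change of 2.92 ± 0.55 against background (adjusted p = 0.00072). Here replicate 2 lay above the controls but well under the other treated cultures.

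ARRDC3, an arrestin involved in receptor and transporter turnover, stood at 10.83 and 10.98 in Nnm replicates 2 and 3, with replicate 1 just above them, and at 8.86, 9.38 and 9.00 in controls. Its rise was 1.86 ± 0.21, without overlap and with little spread between the treated cultures. MLXIP itself was at 8.62, 7.37 and 8.26 with Nnm and at 6.97, 6.63 and 6.17 in controls, a rise of 1.49 ± 0.31. Its partner MLX changed by 0.07 (adjusted p = 0.774), and its liver and kidney relative MLXIPL was at background, between 3.05 and 3.51. ARRDC1 and ARRDC2 were not called, at −0.58 and 0.55. In all, 4 of the 7 tested genes of this group rose and none fell, and the same counts were found with each of the 6 arrays left out in turn.

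The promoter of TXNIP is shown because it holds a carbohydrate response element. Those of ARRDC4 and SLC16A9 held no match to the pattern used for it and are shown for an E-box, a shorter and more common motif. They are the 250 bases before the annotated gene start (RefSeq, GRCh38.p14), with capitals for a carbohydrate response element, searched on both strands as a pair of CACGNG boxes with 5 bases between them, in TXNIP (chr1:145996580-145996829, minus strand), and for an E-box, CACGTG, in ARRDC4 (chr15:97960453-97960702, plus strand) and SLC16A9 (chr10:59710080-59710329, minus strand). An element whose boxes read CACGTG would hold E-boxes too.
TXNIP: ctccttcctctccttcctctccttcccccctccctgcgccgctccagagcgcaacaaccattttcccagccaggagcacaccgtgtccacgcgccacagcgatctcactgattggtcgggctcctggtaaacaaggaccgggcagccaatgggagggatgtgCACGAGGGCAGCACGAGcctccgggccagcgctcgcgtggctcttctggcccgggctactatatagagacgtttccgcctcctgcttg
ARRDC4: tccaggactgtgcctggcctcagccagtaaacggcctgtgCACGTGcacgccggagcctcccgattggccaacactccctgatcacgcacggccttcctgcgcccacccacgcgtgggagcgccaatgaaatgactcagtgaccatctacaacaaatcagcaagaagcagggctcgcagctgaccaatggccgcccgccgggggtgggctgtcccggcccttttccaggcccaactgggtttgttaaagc
SLC16A9: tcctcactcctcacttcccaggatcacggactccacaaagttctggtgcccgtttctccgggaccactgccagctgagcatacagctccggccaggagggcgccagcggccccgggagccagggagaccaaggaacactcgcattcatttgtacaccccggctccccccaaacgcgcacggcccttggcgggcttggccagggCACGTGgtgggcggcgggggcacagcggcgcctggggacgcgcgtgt
The TXNIP element lies at −88 to −72 from the gene start. The pattern was found in 20 of 35116 promoters, or 0.057%, searched over 250 bases before to 50 after the start. The shorter E-box was found in 2548, or 7.26%. Looser spellings of the element, such as those with an inverted second box, were not searched, so 0.057% holds for this pattern only. TXNIP and SLC16A9 have 2 promoters each, of which 1 held the motif shown. No promoter of ARRDC3, MLXIP, SLC16A14 or SLC16A4 held either motif. A match describes the letters in this window and is not evidence of binding.

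The SLC16 family carries lactate, pyruvate, ketone bodies and related molecules across membranes. Of 15 genes listed for it, BSG included, 8 were among the genes kept here and 7 were not, so the family is covered in part. SLC16A1 and SLC16A3 have no result here. The members kept moved in different directions. SLC16A14, a family member without an agreed substrate, was at 9.59, 7.65 and 9.01 with Nnm, against 2.51, 2.54 and 2.42 in controls. The gene was at background in every control and clearly expressed in every treated culture, and its change of 6.26 ± 0.73 against background was the second largest (adjusted p = 8.32e-06). SLC16A9, linked in people to carnitine levels, was at 8.54, 4.88 and 8.15 with Nnm and at 2.27, 2.27 and 2.28 in controls, a change of 4.92 ± 0.96 against background (adjusted p = 0.000947). Replicate 2 again lay between the other treated cultures and the controls.

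SLC16A4 was at 11.17, 9.65 and 11.24 with Nnm and at 9.45, 9.67 and 9.53 in controls, so that replicate 2 lay inside the control range while the mean rose by 1.14 ± 0.32 (adjusted p = 0.011). SLC16A5 fell by 1.11 on the log2 scale (adjusted p = 0.0267). SLC16A7, a pyruvate and lactate carrier, was not called at −0.28, nor was BSG, the chaperone of lactate carriers, at −0.09. SLC16A8 and SLC16A10 stayed below the filter. Of 6 tested genes in the group, 3 rose and 1 fell; leaving out Nnm replicate 1 or 3 ended the calls of SLC16A4 and SLC16A5, and leaving out control replicate 2 or 3 that of SLC16A5.

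**Figure D1:**
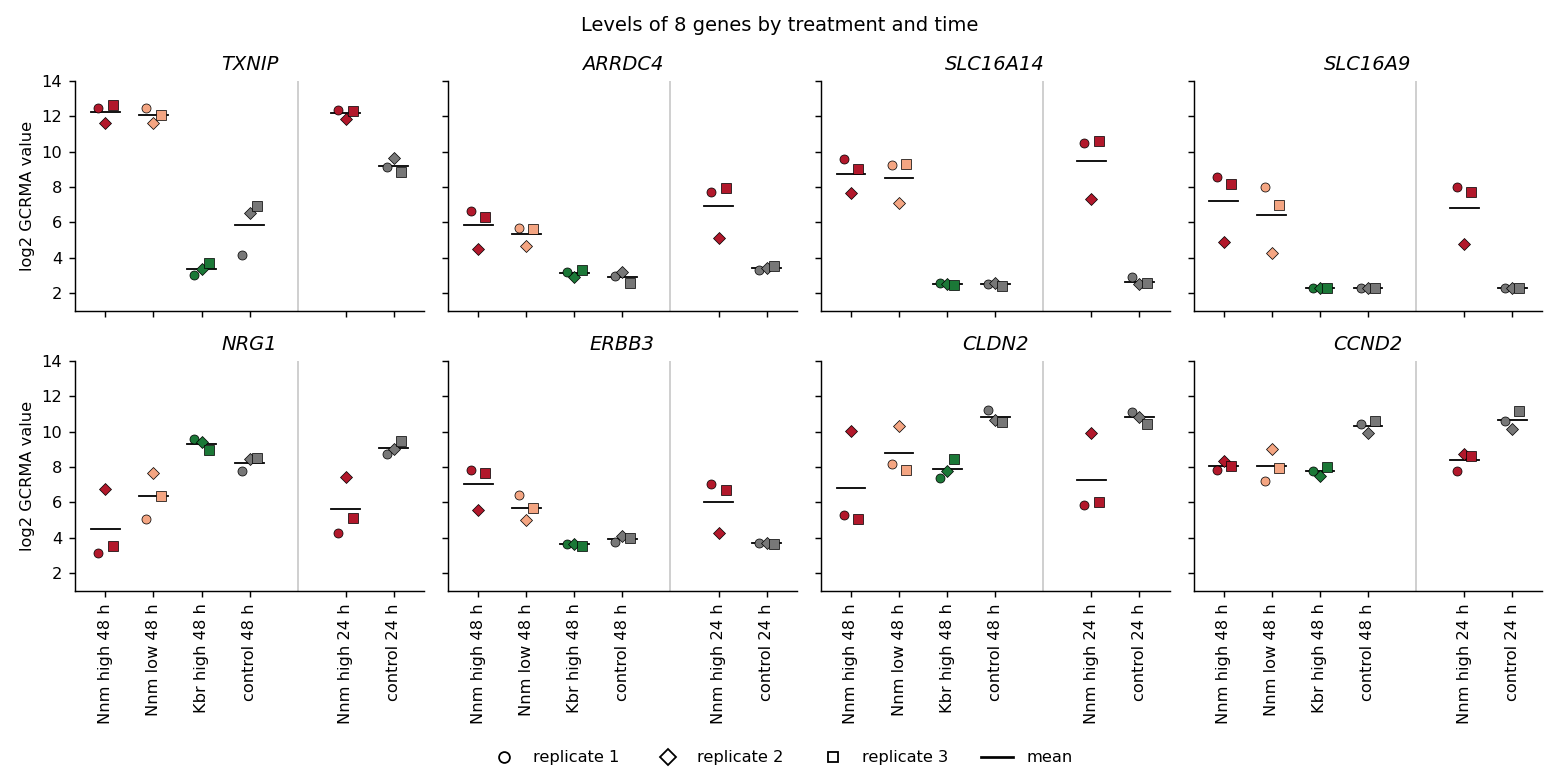
Log2 level (vertical axis) of 8 genes in each array of Nnm high, Nnm low, Kbr high and control at 48 h, and, right of the line, of Nnm high and control at 24 h; marker shape gives the replicate and the bar the mean of 3. TXNIP stands at 11.63 to 12.62 in the Nnm high arrays at 48 h and at 2.99 to 3.70 in the Kbr high arrays, and SLC16A14 and SLC16A9 are at background in all arrays without Nnm.

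Several other large rises started from background. TPPP, which bundles microtubules, was at 10.18, 3.51 and 8.92 with Nnm, against 2.63, 2.61 and 2.62 in controls, so the change of 4.92 ± 1.62 (adjusted p = 0.0278) was carried by replicates 1 and 3. NEGR1, a neuronal adhesion molecule, followed the same pattern, at 8.24, 3.85 and 7.83 with Nnm and 2.87, 2.89 and 2.93 in controls. DHRS2, a short-chain dehydrogenase, was at 8.18, 5.33 and 8.33 with Nnm and 3.05 to 3.13 in controls. GAS1, a membrane protein that accompanies growth arrest and binds hedgehog ligands, was at 7.47, 5.80 and 6.49 with Nnm and 2.74 to 2.77 in controls, with replicate 2 nearer to its fellows.

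Among genes already expressed in controls, G0S2, an inhibitor of triglyceride lipase, was at 13.06, 9.14 and 13.23 with Nnm and at 7.84, 7.02 and 8.41 in controls, a rise of 4.06 ± 0.83 (adjusted p = 0.00138). RSPO3, a secreted amplifier of Wnt signalling, stood at 11.05, 6.36 and 10.25 with Nnm and at 5.41, 5.17 and 5.10 in controls, a rise of 3.99 ± 0.82. PCLO, a presynaptic scaffold, rose by 3.79 ± 0.69. The remaining genes of the 14 largest rises had control means under log2 4, so that their changes are against background: C5AR1, the complement C5a receptor (3.59), ZNF793-AS1 (3.49), SHISA2 (3.46) and MAN1C1, a Golgi mannosidase (3.34). In these 4 genes replicate 2 was the lowest of the treated arrays. That it lay above every control follows from the choice of genes without overlap of the groups.

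CLDN2, the claudin that makes the tight junctions of proximal tubules permeable to cations and water, had the largest fall. It was at 5.28, 10.01 and 5.05 with Nnm, against 11.22, 10.67 and 10.55 in controls. Replicates 1 and 3 lost over 5 units while replicate 2 stayed just under the lowest control, and the mean change was −4.03 ± 1.05 (adjusted p = 0.0075). NRG1, a ligand of the receptors ERBB3 and ERBB4, split in the same way, at 3.13, 6.74 and 3.52 with Nnm and 7.77, 8.46 and 8.51 in controls.

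KRT20, an intermediate filament protein of mucosal epithelia, was well below the controls in all 3 cultures, at 4.68, 5.46 and 5.84 with Nnm and 8.18, 9.20 and 8.88 in controls (−3.43 ± 0.63, adjusted p = 0.00063). UCA1, a long noncoding RNA, was at background with Nnm, at 3.47, 3.58 and 3.84, and at 6.23, 6.63 and 8.17 in controls, so a difference between the treated cultures could not show. THBS1, a matrix glycoprotein that activates latent TGF-beta, fell by 2.98 on the log2 scale and SLC6A13, a carrier of GABA and taurine, by 2.85, both with replicate 2 closest to the controls. B3GALT6, which builds the linker of glycosaminoglycans, fell by 2.55 and CBLN2, a secreted synaptic organizer, by 3.02 to background. The other falls among the largest 14 were CCDC146, ZBED10P, ZFHX4-AS1, LINC00467, KBTBD11 and CCDC71L, with changes between −3.07 and −2.47. CCDC146 and LINC00467 fell to a treated mean under log2 4, and the other probe set of CCDC71L over log2 4 changed in the opposite direction.

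**Figure D2:**
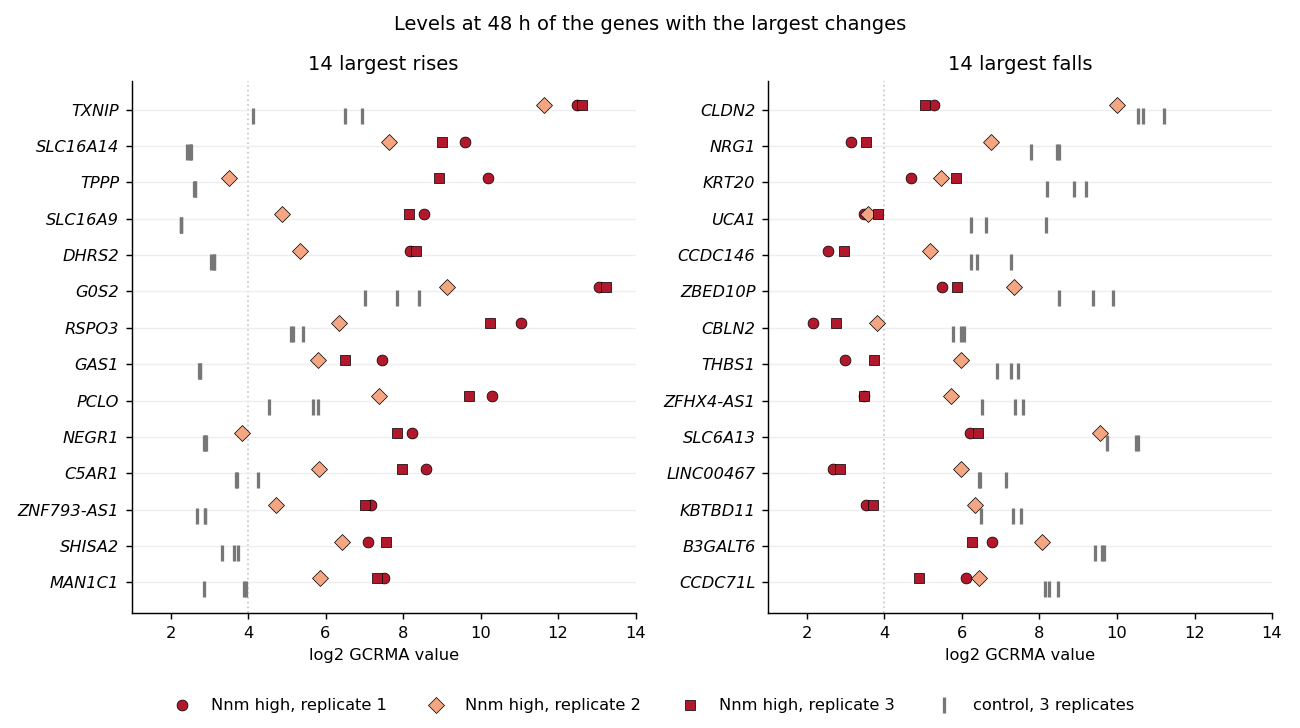
Log2 level (horizontal axis) at 48 h of the 14 genes with the largest rise (left) and the 14 with the largest fall (right) among called genes whose groups do not overlap; filled symbols are the 3 Nnm high arrays with replicate 2 in the lighter colour, grey ticks the 3 controls, and the dotted line marks log2 4. In CLDN2 the second Nnm culture lies at 10.01 beside the controls, while in TXNIP all 3 Nnm cultures lie between 11.63 and 12.62.

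Genes of mitochondrial energy production were lower. Of 68 tested nuclear genes for subunits of the 5 respiratory complexes and cytochrome c, 42 fell and 1 rose, with a median change of −0.37 beside 0.01 for all tested genes. The medians in the single treated arrays were −0.48, −0.26 and −0.42, below 0 in each. The count was 46 without Nnm replicate 2, between 26 and 46 with any 1 of the 6 arrays left out, lowest without Nnm replicate 1, and 4 with the 6 arrays fitted alone.

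Complex I, which takes electrons from NADH, had 19 of 33 subunits lower. NDUFS1, its largest core subunit, was at 9.69, 10.44 and 9.81 with Nnm and at 11.10, 11.22 and 11.26 in controls, without overlap (−1.21 ± 0.20, adjusted p = 0.000207). NDUFA11, NDUFA3 and NDUFA13 fell by 1.31, 1.15 and 1.07 on the log2 scale, and the subunits that were not called ran from −0.39 for NDUFAB1 to 0.17 for NDUFC1. In complex II, SDHA, the flavoprotein that also works in the TCA cycle, was at 9.10, 9.85 and 9.18 with Nnm and 10.60 to 10.67 in controls, while SDHC and SDHD were not called at −0.53 and −0.28.

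Complex III with cytochrome c had 6 of 8 genes lower, led by CYC1, cytochrome c1, with a change of −1.04 ± 0.16, and by CYCS, cytochrome c itself, with −0.81 ± 0.14. In complex IV, cytochrome oxidase, 6 of 10 subunits fell, with the largest change in COX8A at −0.52. In complex V, the ATP synthase, 10 of 14 fell. Its catalytic subunit ATP5F1B was at 11.67, 11.86 and 11.72 with Nnm against 12.87, 12.60 and 12.84 in controls, with all cultures moving by like amounts (−1.02 ± 0.12, adjusted p = 7.06e-06). The exception was ATP5MC2, 1 of 3 genes for the membrane ring, which rose by 0.42, whereas its sister ATP5MC1 fell by 1.25.

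The TCA cycle and its entry enzyme were lower in 11 of 15 tested genes, with a median of −0.75. PDHA1, a subunit of pyruvate dehydrogenase, was at 10.22, 10.99 and 10.16 with Nnm and at 11.76, 11.73 and 11.84 in controls (−1.32 ± 0.19, adjusted p = 6.18e-05). SUCLG2, a succinyl-CoA ligase, fell by 1.52 on the log2 scale and DLD, the dihydrolipoamide dehydrogenase shared by these complexes, by 1.11. Pyruvate carboxylase, PC, was the gene farthest in the other direction at 1.20 and was not called (adjusted p = 0.0638). The count of lower genes was between 10 and 12 with any 1 of the 6 arrays left out.

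The mitochondrial ribosome had 25 of 59 tested proteins lower and none higher, with a median of −0.34. MRPL12, which also binds the mitochondrial RNA polymerase, was at 7.54, 8.31 and 7.50 with Nnm and at 9.43, 8.98 and 9.56 in controls (−1.54 ± 0.26). The count was 11 without Nnm replicate 1 and 15 without control replicate 3. Import and folding factors were lower in 9 of 19 genes, with TIMM50, a receptor of the inner membrane translocase, at −1.18, and higher in TIMM8A at 0.83. The 14 genes that maintain mitochondrial DNA or drive its expression had a median of −0.17, with 8 below 0 and 6 above. TWNK, the replicative helicase, PPRC1 and SSBP1 fell and GABPA and TOP1MT rose; PPARGC1A, the coactivator of mitochondrial biogenesis, was not called at −1.06.

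**Figure D3:**
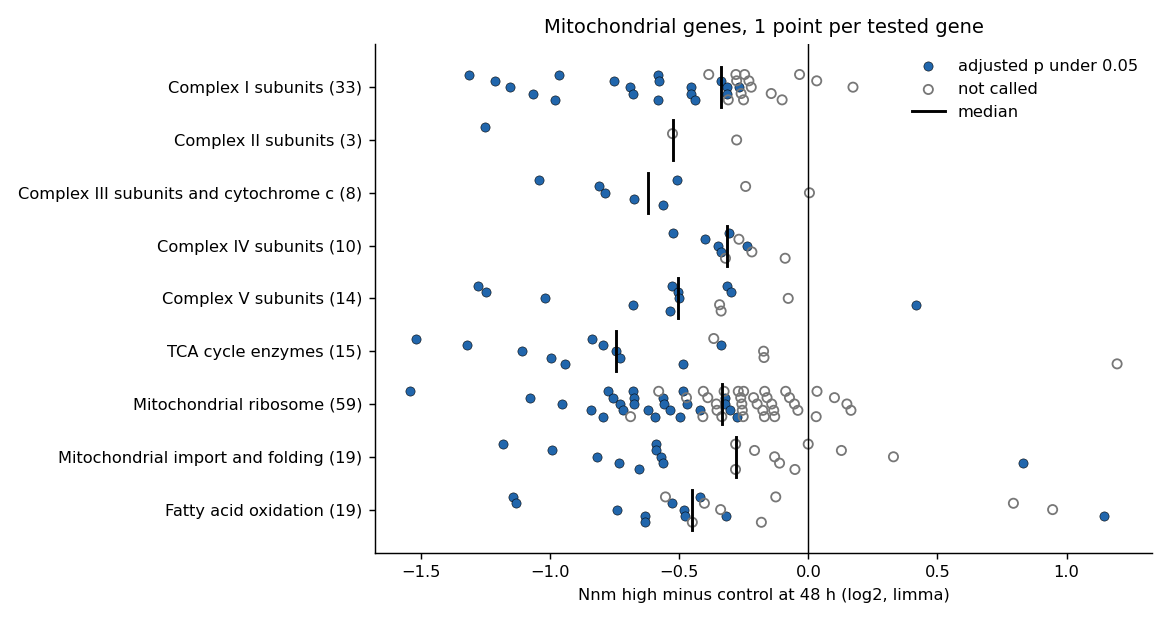
Change in log2 level of Nnm high minus control at 48 h (horizontal axis) for each tested gene of 9 mitochondrial lists, with the number tested in brackets; filled points passed adjusted p under 0.05 in limma, open points did not, and bars are medians. Most points lie left of 0, with medians between −0.75 for the TCA cycle and −0.28 for import and folding. The list for mitochondrial DNA upkeep and biogenesis is not drawn and has a median of −0.17.

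Fatty acid oxidation genes fell in 10 of 19 and rose in 1, with a median of −0.45. ETFB, an electron carrier from the acyl-CoA dehydrogenases, fell by 1.13 on the log2 scale, ACADS, the short-chain dehydrogenase, by 1.14, and the count was 5 without Nnm replicates 1 or 3. The gene that rose was PDK4, the kinase that switches pyruvate dehydrogenase off, at 13.99, 13.37 and 13.89 with Nnm and 12.31, 12.75 and 12.75 in controls (1.14 ± 0.28). Its relative PDK1 did the opposite, at 7.16, 7.74 and 6.87 with Nnm and 8.79, 8.81 and 9.00 in controls (−1.61 ± 0.23).

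Of 28 glycolysis and hypoxia genes, PDK1 among them, 6 fell and 2 rose, beside 12.3% and 15.4% of all tested genes, and with the replicate number as a block 11 fell and 4 rose. None rose without Nnm replicate 1 or 3 or control replicate 2 or 3, and 7 rose without Nnm replicate 2. TPI1, GPI, PGAM1, PGK1 and ENO1, enzymes of the glycolytic path, fell by 0.74, 0.69, 0.67, 0.66 and 0.45 on the log2 scale. HK2, a hexokinase, rose by 0.72 with replicate 2 inside the control range, and ANKRD37 by 1.16.

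Several genes of lipid synthesis were also lower. Of 19 cholesterol synthesis genes 9 fell and none rose, with a median of −0.70 and array medians of −1.18, −0.55 and −0.64. With the replicate number as a block, 16 fell and 1 rose, and without Nnm replicate 1 the lower count was 4. TM7SF2, a sterol reductase, fell by 1.88, MVD by 1.66 and ACAT2 by 1.49. In fatty acid synthesis 5 of 12 genes fell and LPIN1, a phosphatidate phosphatase, rose by 0.44. FASN, the fatty acid synthase, was at 8.55, 8.50 and 8.43 with Nnm and 10.11, 9.41 and 9.98 in controls (−1.34 ± 0.21, adjusted p = 0.000139). SREBF1, the factor that drives this pathway, was at 6.84, 7.08 and 6.86 with Nnm and 8.23, 7.81 and 8.29 in controls. In both genes the 3 treated cultures lay together, replicate 2 included.

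Interferon-induced genes rose in 15 of 34 tested members, and none fell. Their median change was 0.47, and the medians in the treated arrays were 0.50, 0.44 and 0.43, although in some of the risen genes, IFIT2 among them, replicate 2 was the lowest treated array. The count was 8 without Nnm replicate 1 or without control replicate 1, 9 without control replicate 3, and 3 with the 6 arrays fitted alone. IFIT2, an inhibitor of translation of foreign RNA, was at 10.13, 8.95 and 9.89 with Nnm and 7.42, 8.47 and 7.51 in controls (1.86 ± 0.31, adjusted p = 0.000322). OASL and OAS1, of the oligoadenylate synthetase family, rose by 1.83 and 1.61.

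HERC5, the ligase for ISG15, was at 11.41, 10.73 and 11.31 with Nnm and 9.63, 10.10 and 9.77 in controls, without overlap. IFIT1 was at 9.62, 9.32 and 9.63 with Nnm and 7.70, 8.82 and 8.28 in controls, and IFI6, a membrane protein, at 6.75, 7.14 and 6.92 with Nnm and 6.29, 6.34 and 6.30 in controls, where replicate 2 was the highest. GBP2, IRF1, IFI44, IFIT3, DDX60, IFIH1, PARP14, DTX3L and EIF2AK2 also rose, by 0.47 to 1.55, with replicate 2 inside the control range for IRF1, at 6.54, and for IFIT3, at 9.21. ISG15 was not called at −0.38, and MX1, MX2, IFI27, OAS2, SAMD9L and XAF1 were at background.

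The promoters of HERC5, IFIT1 and IFI6 are printed as examples of risen interferon-induced genes with response elements, searched on both strands as a pair of GAAA with 2 bases between them and shown in capitals within the 250 bases before the gene start (RefSeq, GRCh38.p14). HERC5 is at chr4:88456869-88457118 on the plus strand, IFIT1 at chr10:89392373-89392622 on the plus strand and IFI6 at chr1:27672193-27672442 on the minus strand.
HERC5: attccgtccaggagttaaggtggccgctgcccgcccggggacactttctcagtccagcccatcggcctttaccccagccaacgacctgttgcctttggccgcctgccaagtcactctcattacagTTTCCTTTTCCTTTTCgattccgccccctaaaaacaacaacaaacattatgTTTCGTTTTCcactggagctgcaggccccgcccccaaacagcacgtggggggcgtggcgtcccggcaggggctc
IFIT1: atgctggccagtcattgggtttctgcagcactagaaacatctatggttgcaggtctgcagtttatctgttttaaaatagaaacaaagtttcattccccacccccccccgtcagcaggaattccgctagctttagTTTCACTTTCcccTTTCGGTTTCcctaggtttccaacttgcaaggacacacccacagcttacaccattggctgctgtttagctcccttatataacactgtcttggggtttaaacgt
IFI6: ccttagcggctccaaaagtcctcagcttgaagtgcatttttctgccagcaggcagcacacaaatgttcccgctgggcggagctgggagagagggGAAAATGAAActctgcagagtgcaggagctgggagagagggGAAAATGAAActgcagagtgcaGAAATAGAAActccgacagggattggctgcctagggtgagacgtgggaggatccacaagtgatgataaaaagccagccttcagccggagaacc
HERC5 and IFI6 have 3 matches each and IFIT1 has 2, all between −156 and −65 from the start. Of the 15 risen genes, 12 had a promoter in the table and 10 of these held the element (83.3%), OAS1 and IRF1 being without it. Of the 17 interferon-induced genes with a promoter that were not called, 12 held it (70.6%), against 1255 of all 35116 promoters (3.57%). Called and uncalled members of the list both held the motif more often than promoters at large, and these shares describe letters, not binding.

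The NRF2 targets, antioxidant genes, rose in 7 of 25 and fell in 3, beside 15.4% and 12.3% of all tested genes. TXNRD1, thioredoxin reductase, was at 13.60, 12.58 and 13.60 with Nnm and 11.57, 11.71 and 11.54 in controls (1.65 ± 0.32), and NQO1, the quinone reductase, at 12.18, 11.10 and 12.20 with Nnm and 10.27, 10.44 and 10.61 in controls (1.39 ± 0.25). Both were above every control in all 3 cultures, least so in replicate 2. HMOX1, heme oxygenase, was not called at 0.77, with treated arrays at 9.14, 7.47 and 9.23 against 7.63, 7.68 and 8.21 in controls. With the replicate block 12 targets rose, without Nnm replicates 1 and 3 the counts were 2 and 3, and without control replicate 1 or 2 the count was 4.

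The targets of ATF4, the factor of the integrated stress response, divided the replicates. Their medians were 1.16, −0.51 and 0.88 in replicates 1, 2 and 3, and 1 of 29 genes rose, SLC38A2, an amino acid carrier, by 0.39. ASNS, asparagine synthetase, was at 11.28, 8.93 and 10.94 with Nnm and 10.15, 9.26 and 9.24 in controls (0.83, adjusted p = 0.361), and CHAC1 at 6.90, 3.50 and 6.88 with Nnm and 6.35, 4.19 and 4.14 in controls. In these, control replicate 1 was the high control and Nnm replicate 2 lay below all controls. Without Nnm replicate 2, 7 of the genes rose, with the block 4 rose and 1 fell, and with any other of the 6 arrays left out none was called higher.

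Heat shock genes behaved alike: 4 of 16 rose, led by HSPA4L (0.86) and DNAJB1 (0.80), 9 rose without Nnm replicate 2, 1 without control replicate 1 or 2, and none without Nnm replicate 1, Nnm replicate 3 or control replicate 3. Of 23 endoplasmic reticulum chaperones and related genes 3 fell, SEC24D, a coat protein of transport vesicles, by 1.59 and CALR, calreticulin, by 0.90. The count was 1 without Nnm replicate 1, Nnm replicate 3 or control replicate 1. Among 24 p53 targets there was 1 rise, DDB2 at 1.01, and there were 3 falls, among them PLK2 at −1.58. Without Nnm replicate 1 no p53 target rose and 1 fell, and without Nnm replicate 2, 3 rose and 4 fell. For both lists the shares over all tested genes were 15.4% higher and 12.3% lower. Proteasome subunits fell in 14 of 28, by 0.80 at most for PSMA3, and the count was 3 without Nnm replicate 1, 8 without control replicate 2 and 4 without control replicate 3. In contrast PSMB9, an interferon-induced subunit of the immunoproteasome, rose by 1.33 ± 0.25, while its neighbour subunit PSMB8 fell by 0.47, a call lost without Nnm replicate 1 or 3.

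**Figure D4:**
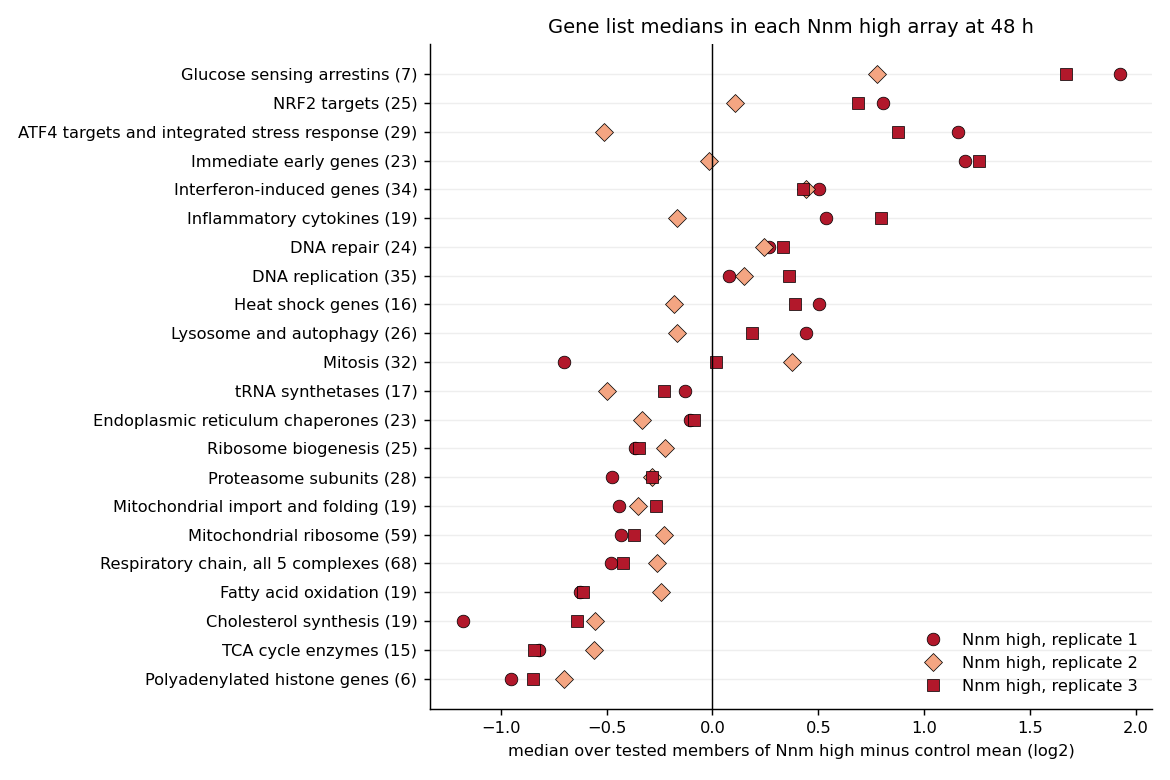
Median over the tested members of 22 gene lists (number tested in brackets) of the log2 difference from the control mean, shown for each Nnm high array at 48 h with replicate 2 in the lighter colour. The list medians of the replicates lie together for the interferon-induced genes (0.50, 0.44 and 0.43) and apart for the ATF4 targets (1.16, −0.51 and 0.88).

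Replication genes rose in 8 of 35, beside 15.4% higher over all tested genes, and none fell. ORC1, which marks replication origins, was at 9.21, 8.35 and 9.68 with Nnm and 7.09, 7.46 and 8.17 in controls, and CDT1, the licensing factor, at 11.60, 10.00 and 11.27 with Nnm and 9.56, 9.39 and 9.50 in controls, rises of 1.50 ± 0.31 and 1.48 ± 0.31. MCM10 and CCNE2 followed with 1.21 and 0.81, whereas POLA1, a subunit of the priming polymerase, was at −0.95 and not called. Of 24 DNA repair genes 6 rose, FANCB of the Fanconi pathway by 1.75, EXO1, an exonuclease, by 1.17, and BLM, BRCA1, MSH6 and RAD51C by 0.44 to 0.81. The count of replication genes was 4 without Nnm replicate 3 and 5 without control replicate 1, and that of repair genes 3 without Nnm replicate 1 or 3.

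Mitosis genes divided the replicates in the other direction. KIF20A, a kinesin of cell division, was at 8.05, 10.97 and 9.24 with Nnm and 10.36, 10.46 and 10.63 in controls, and AURKA at 9.62, 11.40 and 10.42 with Nnm and 11.11, 11.23 and 11.50 in controls. Replicates 1 and 3 lay below the controls and replicate 2 did not. In all, 3 of 32 fell, beside 12.3% of all tested genes, with array medians of −0.70, 0.38 and 0.02. Without Nnm replicate 2, 10 fell, and none fell without Nnm replicate 1 or 3. The count was 1 without control replicate 2 or 3.

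CCND2, a G1 cyclin, was lower throughout, at 7.80, 8.31 and 8.05 with Nnm and 10.41, 9.93 and 10.61 in controls (−2.27 ± 0.41, adjusted p = 0.000615). CDK4, its kinase partner, fell by 0.65, CDKN2A and CDKN1C, inhibitors of such kinases, by 0.71 and 0.91, and CDKN1B rose by 0.56. Polyadenylated histone transcripts fell in 3 of 6, H2BC12 by 1.05, and in 5 with the block or without Nnm replicate 2. Ribosome biogenesis genes fell in 9 of 25, among them BYSL and NOP16, and in 3 without Nnm replicate 1 and 5 without Nnm replicate 3 or control replicate 2. POLR1D, a subunit shared by RNA polymerases I and III, rose by 1.78 ± 0.33, although 2 further probe sets of POLR1D that were over log2 4 had changes of the opposite sign.

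In the EGF family ERBB3, a receptor for neuregulins, was at 7.80, 5.58 and 7.66 with Nnm and 3.75, 4.10 and 3.96 in controls, a rise of 3.08 ± 0.59 against background (adjusted p = 0.000807), while its ligand NRG1 fell by 3.78 on the log2 scale. EGF rose by 1.21 against background, ERRFI1, a feedback inhibitor of the EGF receptor, rose by 1.31 and TGFA fell by 0.68, whereas EGFR and ERBB2 were not called at −0.42 and 0.07. Of 11 tested genes 3 rose and 2 fell, and 1 rose without Nnm replicate 1 or 3. The medium contained EGF in all groups.

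Immediate early genes rose in 8 of 23, and MYC fell by 0.69. IER3 was at 13.06, 11.25 and 13.01 with Nnm and 11.11, 10.43 and 10.75 in controls, and FOS at 5.18, 3.86 and 6.07 with Nnm and 3.92, 3.32 and 3.52 in controls, with the controls at background and Nnm replicate 2 inside their range. The array medians were 1.19, −0.02 and 1.26. The count was 15 without Nnm replicate 2, 14 with the replicate block, 3 without Nnm replicate 3, and 4 without Nnm replicate 1 or control replicate 2 or 3.

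Among 19 inflammatory cytokines and their regulators CCL20, a chemokine, rose by 2.64 ± 0.82, CXCL3 by 1.76 and NFKBIA, the inhibitor of NF-kappa-B, by 0.86. These 3 were the only calls of the list, beside 15.4% higher over all tested genes. CCL20 was at 6.88, 5.62 and 9.22 with Nnm and 4.37, 4.98 and 4.44 in controls, the spread of the treated cultures being the larger. No call of the list was left without Nnm replicate 3, 7 rose and 2 fell without Nnm replicate 2, and 6 rose and 2 fell with the block. Of 28 collagen and TGF-beta target genes 7 rose and 4 fell: LAMB3, a laminin chain, rose by 2.46, and ID3, an inhibitor of differentiation factors, was at 6.88, 6.80 and 7.12 with Nnm and 5.00, 5.66 and 4.34 in controls, while THBS1, MYL9, COL4A1 and COL4A2 fell. Without Nnm replicate 2, or with the block, 12 of them rose, and 3 or 4 without Nnm replicates 1 and 3 or control replicates 1 and 3.

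Among 16 tested tight junction genes, beside CLDN2, CGN, cingulin of the tight junction, fell by 1.85. OCLN, occludin, and PARD3 rose by 0.81 and 0.46. Without Nnm replicate 1 or 3 neither rise was called, and the count of falls was 1 in place of 2. Of 13 tested cadherins and regulators of epithelial to mesenchymal transition 2 rose, CDH2 by 0.83 and TWIST1 by 0.90. This stands beside 15.4% higher over all tested genes, and none fell. CDH1, E-cadherin, was not called at −0.95, and the median of the list was 0.13. The count of rises was 0 without Nnm replicate 1, 4 without Nnm replicate 2, and 1 without Nnm replicate 3 or control replicate 2 or 3. Of 14 injury markers IL18, CLU and TIMP1 rose, beside 15.4% of all tested genes. HAVCR1, the kidney injury molecule, and ANXA2 fell, beside 12.3%. Neither fall was called without Nnm replicate 1 or control replicate 2 or 3, that of HAVCR1 was not called without Nnm replicate 3 or control replicate 1 either, and 6 markers rose without Nnm replicate 2. HAVCR1 was at 9.47, 11.18 and 10.11 with Nnm and 11.03, 11.22 and 11.26 in controls, so its fall of 0.91 (adjusted p = 0.0474) lay in replicates 1 and 3. Of 7 tested proximal tubule markers 3 rose and 1 fell, beside 15.4% and 12.3% of all tested genes. Without Nnm replicate 2, 1 of them rose and 3 fell. Their changes ran from −1.81 to 1.16. DPP4, a brush border peptidase, was at 12.50, 13.16 and 12.59 with Nnm and 11.61, 11.99 and 11.56 in controls, here highest in replicate 2. SLC40A1, the iron exporter ferroportin, rose in all cultures, at 9.18, 8.99 and 9.04 with Nnm and 7.68, 8.10 and 7.36 in controls (1.36 ± 0.32).

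How far the response depended on dose was asked by setting the high against the low dose at 48 h. None of 11036 genes (0%) passed the adjusted p in limma, with 569 at an unadjusted p under 0.05. TXNIP was at 12.49, 11.63 and 12.62 at the high dose and 12.45, 11.60 and 12.10 at the low dose, a difference of 0.20 with a 95% interval of −0.89 to 1.28. The difference for SLC16A14 was 0.21 (−1.29 to 1.72) and for NDUFS1 −0.26 (−0.67 to 0.14). CLDN2 was at 5.28, 10.01 and 5.05 at the high dose and 8.16, 10.34 and 7.84 at the low dose, with an interval of −4.18 to 0.18 for the difference.

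None of the genes named next was called. NRG1 was at 3.13, 6.74 and 3.52 at the high dose and 5.02, 7.66 and 6.34 at the low dose, lower at the high dose in each number (−1.88, interval −3.65 to −0.11, adjusted p = 0.874). KIF20A was at 8.05, 10.97 and 9.24 at the high dose and 10.62, 10.87 and 11.18 at the low dose, and PCK1, an enzyme of gluconeogenesis, at 2.82, 5.16 and 3.62 at the high dose and 5.15, 5.06 and 4.93 at the low dose, with only replicate 2 alike. The adjusted p was 0.856 for each of these. CCDC146, which also split the replicates, was at 2.56, 5.16 and 2.95 at the high dose and 2.76, 5.69 and 2.76 at the low dose. Without the Nnm arrays numbered 2, 1031 genes differed between doses, 463 higher and 568 lower, and without the high dose replicate 2 alone 570. Both doses were set against the same 3 controls, which gave 1558 calls (14.1%) for the low dose, 926 higher (8.39%) and 632 lower (5.73%), with 24 of 68 respiratory genes lower and 11 of 34 interferon-induced genes higher.

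The 24 h arrays, with controls of their own, gave 3967 calls at the high dose (35.9%), 1939 higher (17.6%) and 2028 lower (18.4%). Of the 48 h calls 1868 were called in the same direction at 24 h, 983 higher and 885 lower, which is 61.2% of the 48 h calls and 47.1% of the 24 h calls, and 6 were called in opposite directions. The Pearson r of the changes was 0.775 over the 11036 genes, as a description; the cultures of both times share replicate numbers. SLC16A14, SLC16A9, ERBB3, NRG1 and CLDN2 changed by 6.83, 4.55, 2.32, −3.50 and −3.55 at 24 h. At 24 h the split of the replicates was present too: CLDN2 was at 5.87, 9.91 and 6.00 in the Nnm high arrays and at 11.13, 10.85 and 10.44 in the 24 h controls.

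The difference between the 48 h and 24 h responses was itself tested and gave no gene (0%) in limma, with 1297 at an unadjusted p under 0.05. That test left out the pairing by replicate number, although same-numbered arrays deviated together. With the number as a block 80 genes differed, 54 with a more positive response at 48 h and 26 with a more negative one. TXNIP was among them, at 3.43 and adjusted p = 0.0316 with the block (0.13 without): its Nnm high arrays were at 12.49, 11.63 and 12.62 at 48 h and at 12.33, 11.87 and 12.29 at 24 h, while the controls were at 4.14, 6.51 and 6.95 at 48 h and at 9.14, 9.66 and 8.85 at 24 h. The treated arrays overlapped between the times and the controls did not.

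Replication genes differed most in their calls, with 8 higher and none lower at 48 h, and 3 higher and 15 lower at 24 h; their medians were 0.18 and −0.43. None of the 35 passed the test of the difference, 1 did with the block, and 24 did, all with a more positive response at 48 h, without the Nnm arrays numbered 2. MCM10 was at 8.22, 7.44 and 8.79 with Nnm against 6.43, 6.84 and 7.56 in controls at 48 h, and at 7.62, 8.34 and 8.12 against 8.16, 8.24 and 8.54 at 24 h. Here too the controls at 48 h all lay below those at 24 h. Respiratory genes were lower in 42 at 48 h and 25 at 24 h, the mitochondrial ribosome in 25 and 36, and cholesterol synthesis in 9 and 12. Without the Nnm arrays numbered 2 the time difference was called in 1875 genes overall and in 208 and 1237 without the 48 h or the 24 h array numbered 2.

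**Figure D5:**
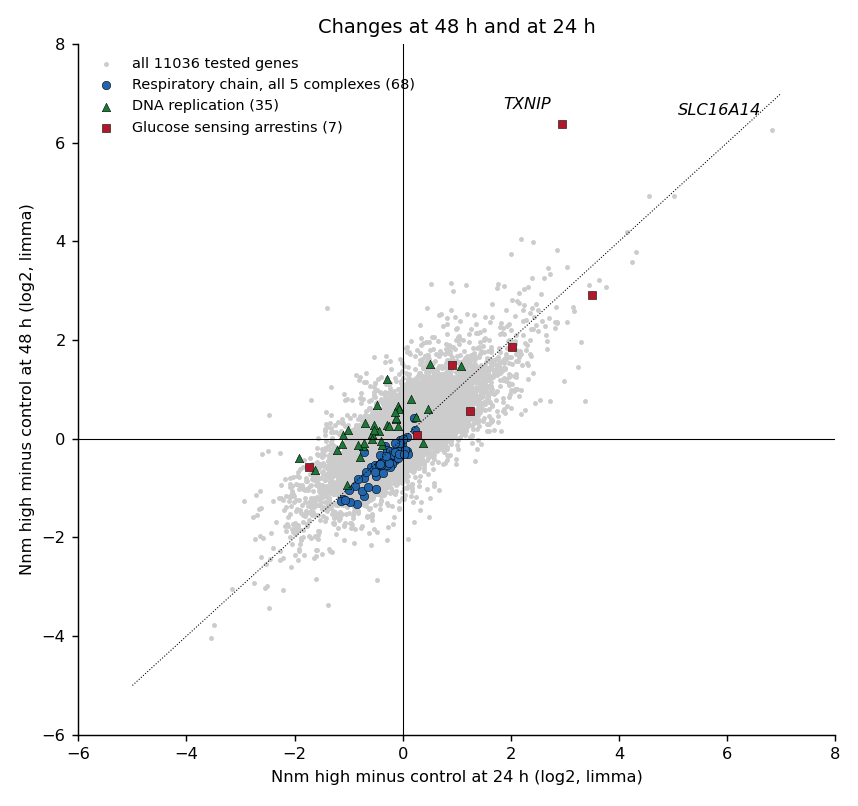
Change of Nnm high minus control in log2 units at 48 h (vertical) and at 24 h (horizontal) for the 11036 tested genes, with respiratory chain genes, replication genes and glucose-sensing arrestins marked; the dotted line marks equal changes. TXNIP lies above that line, at 6.38 and 2.95, and the replication genes lie mostly above it too, with medians of 0.18 and −0.43.

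Kbr at its high dose was set against the same 48 h controls and differed from Nnm in 6255 genes (56.7%), 3585 higher (32.5%) and 2670 lower (24.2%) with Nnm. Kbr itself gave 5643 calls against these controls (51.1%), 2449 higher (22.2%) and 3194 lower (28.9%). TXNIP was at 12.49, 11.63 and 12.62 with Nnm and at 2.99, 3.34 and 3.70 with Kbr, a difference of 8.90 ± 0.53 (adjusted p = 2.41e-11), with the Kbr arrays at background. SLC16A14, PCLO and SCEL, also at background with Kbr, were higher by 6.26, 6.33 and 5.88. SCEL, a protein of cornified envelopes, was 9.77, 9.96 and 9.37 with Nnm, inside the control range, and 3.55, 4.32 and 3.61 with Kbr. NRG1 was lower with Nnm by 4.86 and UCA1 by 3.80, as were SDF2L1 and FOSL1 by 4.44 and 3.75. UCA1 and FOSL1 were at background with Nnm, and FOSL1 was not called against control at −0.28.

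By group, 27 of 28 proteasome subunits, 41 of 59 mitochondrial ribosomal proteins and 21 of 25 ribosome biogenesis genes were lower with Nnm than with Kbr, and 24 of 34 interferon-induced genes were higher, none being lower. Against the shared controls, 14 proteasome subunits fell and none rose with Nnm, and 27 rose and none fell with Kbr. Mitochondrial ribosomal proteins fell in 25 and rose in none with Nnm, and rose in 24 and fell in 10 with Kbr. Ribosome biogenesis genes fell in 9 and rose in 1 with Nnm, and rose in 21 and fell in none with Kbr. Interferon-induced genes rose in 15 and fell in none with Nnm, and rose in 1 and fell in 17 with Kbr. The differences between the compounds thus hold changes of both. For the respiratory chain, 22 of 68 were lower and 8 higher with Nnm than with Kbr; against control the lower counts were 42 with Nnm and 29 with Kbr. CCND2 and KRT20 fell with both compounds, CCND2 by 2.27 with Nnm and by 2.56 with Kbr, and the difference of 0.29 ± 0.41 was not called. SLC40A1 moved in opposite directions, at 9.18, 8.99 and 9.04 with Nnm and 3.34, 3.33 and 3.35 with Kbr, against 7.68, 8.10 and 7.36 in controls. After quantile normalization the share of higher calls in this comparison was 44.2% in place of 57.3%, as the median difference over all genes moved to −0.09 in place of 0.10.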

How the data were processed

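Total RNA of cultured HK-2 cells was measured on Affymetrix arrays, and the 38 groups of 3 arrays lie in 1 table. The deposited values are log2 expression values per probe set, normalized together by the authors with GCRMA, per the submitters' processing notes, so background correction and quantile scaling preceded every difference here, and values under about log2 4 carry little signal. The number of arrays, 3 per group, limits the precision.

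Of 54675 probe sets, 41091 had 1 gene symbol in the platform annotation, 1801 had several and 11721 had none, with 62 control probe sets, and symbols of 41037 were updated through their Entrez identifier. For each of 19775 genes the brightest probe set on average was kept, and 11036 genes with a value over log2 4 on at least 3 of 30 arrays were tested. A group-means model of the 30 arrays of Nnm, Kbr and their controls was fitted with limma 3.58.1 in R 4.3.3 (lmFit, contrasts.fit, eBayes, residual degrees of freedom 20, prior 2.85) and p-values were adjusted by Benjamini-Hochberg over all genes tested. Summaries used pandas 2.3.3 and numpy 2.4.6 under Python 3.11.15, plots used matplotlib 3.10.9, and the fit was tested on simulated data.

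Groups were taken from the sample labels. The comparisons were Nnm high against control at 48 h, against Nnm low, against Kbr high, and the 48 h against the 24 h response. The members and 49 gene lists (1029 genes) were chosen with earlier results of these data known. The genes named are the 14 largest called rises and falls without overlap of the groups, and up to 4 called members per list with members that show its range. All listed arrestins and SLC16 genes among the 19775 genes, and the 4 largest called genes each way of the other comparisons, were named too. Further list members were added after their values were seen. Same-numbered arrays deviated together from their group means in all 24 pairs of groups and controls (r 0.139 to 0.673, median 0.401). The numbers were therefore taken as pairs in the replicate block, from the data and not from a statement of the labels. The block was an alternative only, and the main fit with its adjusted p and SE left the pairing out. Alternatives were the replicate block, other filters, probe set rules, quantile normalization, a trended prior, other sets of arrays, and each array left out.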

Additional observations from a re-analysis of the deposited data

How the results depend on the processing

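The count of 3053 genes ranged from 1442 to 4383 with 1 of the 6 arrays left out, was 365 with only the arrays compared, and was 5304 without the Nnm arrays numbered 2 at both doses and times. With the replicate number as a block it was 4547, within 1.5 times. The dose comparison, with 0 calls, gave 2 without a filter, 12 with all arrays of the series fitted, 1031 without the Nnm arrays numbered 2, and 0 to 570 with 1 array left out. The time comparison, also with 0, gave 16 with all arrays, 80 with the replicate block, 1875 without the Nnm arrays numbered 2, and 0 to 1237 with 1 array left out. The Kbr comparison stayed between 4615 and 7175 over every alternative run. Of 180 genes followed, the block ended no call, the 6 arrays alone ended 134, no filter 30, and leaving out Nnm replicates 1, 2 and 3 ended 71, 3 and 63. Some changes reversed. MLX was at −0.136 with all probe sets averaged, and −0.108 to 0.242 with 1 array left out, below 0 without Nnm replicate 1. SLC11A2 was at −0.723 without probe sets of shared or mixed specificity. BSG ran from −0.330 to 0.210 with 1 array left out, and was at 0.210 without all Nnm arrays numbered 2, 0.210 without this Nnm replicate 2 and 0.0565 without control replicate 1. The cause of these shifts was not tested. Fewer arrays leave fewer degrees of freedom, and for some genes, CLDN2 among them, the Nnm high arrays spread more widely than the controls. For genes near background in a group, the floor of the arrays limits the size of the fold.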
